A study of Mus musculus with 29 samples.

Results

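The genes described here make, clear, break down or bind γ-aminobutyric acid (GABA), the main inhibitory transmitter of the brain. They are Gad1 and Gad2, which encode the glutamate decarboxylases; Slc6a11 and Slc6a13, which encode the GABA transporters GAT-3 and GAT-2; Abat and Aldh5a1, which encode GABA transaminase and succinic semialdehyde dehydrogenase; Maob, which encodes monoamine oxidase B; and Gabbr1 and Gabbr2, which encode the subunits of the GABA-B receptor. They were taken by gene symbol from the deposited read count table, where all 9 were present among 36172 gene rows, and all 9 passed the filter on low counts in every comparison. Levels are given as CPM, the read count of a gene scaled to a fixed total per library, and log2 fold changes are those of edgeR after TMM scaling.

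RNA was obtained by translating ribosome affinity purification (TRAP) from the brains of mice carrying NuTRAP, a construct that tags ribosomes with EGFP in cells where Cre has acted. Aldh1l1-Cre/Ert2+; NuTRAP+ mice, whose tamoxifen-dependent Cre is driven by a promoter used by astrocytes, gave a negative fraction (unbound RNA, n = 3) and a positive fraction (RNA on the anti-GFP beads, n = 3) from mice 290, 293 and 294. Cx3cr1-Cre/Ert2+; NuTRAP+ mice, whose Cre is driven by a promoter used by microglia, gave an input (cleared homogenate, n = 6), a negative fraction (n = 6), a positive fraction (n = 6) and whole tissue (n = 5) from mice 155, 192, 194, 209, 210 and 277, with no whole tissue for mouse 155. All mice received tamoxifen at 100 mg/kg daily for 5 days at about 3 months of age, and every control fraction came from the same induced mice. The paper delayed collection of Cx3cr1-NuTRAP brains by some weeks after tamoxifen, and took Aldh1l1-NuTRAP brains for cytometry and imaging a week after it. The labels do not give this time for each library, so it cannot be told apart from the line. The mice were heterozygous males and females, and the labels do not give their sex one by one. The Cx3cr1 promoter also acts in brain macrophages other than microglia. For the astrocyte line the input and the whole tissue were not analysed here, and the unbound RNA served as its control. The whole tissue libraries are titled Slice, whereas the paper homogenized a half-brain for TRAP, and the labels do not say which piece the slice was. Between input and whole tissue, the piece of brain therefore cannot be told apart from the clearing of the homogenate.

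GABA is formed from glutamate by the glutamate decarboxylases in inhibitory neurons. After release it is removed by sodium-coupled transporters, of which GAT-3 is found mainly on astrocytes and GAT-2 in the meninges. Inside the cell GABA transaminase converts it to succinic semialdehyde, which succinic semialdehyde dehydrogenase oxidizes to succinate. A second route leads from putrescine to GABA through an oxidation by monoamine oxidase B, which also degrades monoamines. The GABA-B receptor is an obligate pair of the Gabbr1 and Gabbr2 products that signals through inhibitory G proteins to potassium channels, calcium channels and adenylyl cyclase.

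On GRCm38 (mm10), Gad1 (Entrez 14415) spans chr2:70553072-70602014 and Gad2 (14417) chr2:22622205-22693874, both on the + strand. Slc6a11 (243616) lies at chr6:114131241-114249952, also on the + strand. Slc6a13 (14412) lies at chr6:121300227-121337733, on the + strand upstream of Slc6a12 (14411, chr6:121343076-121365775). Abat (268860) spans chr16:8513429-8621568 on the + strand, Aldh5a1 (214579) chr13:24907579-24937661 on the − strand, and Maob (109731) chrX:16709282-16817366 on the − strand. Gabbr1 (54393) spans chr17:37045966-37075067 on the + strand and Gabbr2 (242425) chr4:46662305-46991873 on the − strand.

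The promoters of Gad1, Gad2 and Slc6a11 are shown because these genes moved in opposite directions in the astrocyte positive fraction. Each is the 250 bases before the RefSeq start on GRCm38.p6, + strand, 5′ to 3′, with motif matches on either strand in capitals. The motifs were TATAAA, the core of the TATA box, then GGGCGG, the GC box, and lastly the E-box CACGTG. RefSeq promoter windows were at hand for 7 of the 9 genes, without Abat and Maob.
Gad1 (chr2:70561879-70562128): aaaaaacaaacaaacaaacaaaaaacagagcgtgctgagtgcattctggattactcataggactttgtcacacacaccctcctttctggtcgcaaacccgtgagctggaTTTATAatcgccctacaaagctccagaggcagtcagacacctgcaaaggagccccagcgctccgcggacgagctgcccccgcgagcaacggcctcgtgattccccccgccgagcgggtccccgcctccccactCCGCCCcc
Gad2 (chr2:22622077-22622326): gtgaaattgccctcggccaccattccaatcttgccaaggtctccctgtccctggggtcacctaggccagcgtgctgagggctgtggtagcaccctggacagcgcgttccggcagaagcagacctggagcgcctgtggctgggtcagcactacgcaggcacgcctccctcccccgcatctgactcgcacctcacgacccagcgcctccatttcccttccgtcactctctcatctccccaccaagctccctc
Slc6a11 (chr6:114130991-114131240): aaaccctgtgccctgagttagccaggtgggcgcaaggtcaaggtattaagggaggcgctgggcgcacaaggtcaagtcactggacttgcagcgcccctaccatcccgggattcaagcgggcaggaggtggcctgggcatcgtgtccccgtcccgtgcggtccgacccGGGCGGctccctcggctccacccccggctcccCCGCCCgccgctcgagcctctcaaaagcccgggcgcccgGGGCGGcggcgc
The Gad1 window held 1 TATA box core on the reverse strand and 1 GC box, the Gad2 window none of these motifs, and the Slc6a11 window 3 GC boxes. Of 32851 RefSeq windows of this length, 12.4% held the TATA box core, 32.7% the GC box and 6.02% the E-box. GC content was 58.0% for Gad1, 64.0% for Gad2 and 71.2% for Slc6a11, with 17, 13 and 25 CpG dinucleotides. A match describes these letters and is not a binding site.

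Library totals ranged from 4260949 counts in the whole tissue of mouse 210 to 26857866. All 10 astrocyte markers were higher in the positive than in the negative fraction of Aldh1l1-NuTRAP mice, and all 10 microglial markers were higher in the positive fraction than in the input of Cx3cr1-NuTRAP mice. The summed astrocyte markers stood at 18154 to 27238 CPM in the astrocyte positive fraction and 3031 to 4685 CPM in the microglial one, and the summed general neuron markers at 1361 to 1746 and 4305 to 6996 CPM. No defining marker of any list was at 0 in all libraries of a group. Markers of other cells also differed between fractions: 6 of 7 choroid plexus markers were higher in the Aldh1l1-NuTRAP positive fraction, with Slc4a5 left aside because it passed the filter through that fraction alone. Their sum over all 7 was 2938 to 3383 CPM against 492 to 639 CPM in the negative fraction. The ependymal sum was likewise higher, at 61.7 to 92.9 against 26.7 to 41.8 CPM. Lower in the positive fraction were the oligodendrocyte sum (802 to 936 against 3596 to 3945 CPM) and the glutamatergic neuron sum (988 to 1237 against 4174 to 5600 CPM). The log2 ratio of long to short genes (longest transcript over 5000 and under 1500 bases), given relative to the median library, differed between fractions. It was −1.93, −0.55 and −0.70 in the astrocyte positive and −0.77, −0.0015 and 0.12 in the negative fractions of mice 290, 293 and 294, lower in 3 of 3 mice. In the microglial positive fraction it ran from −0.57 to 0.07 (median −0.36), in the negative fraction from −0.77 to 0.04 (median −0.01), in the input from −0.10 to 0.44 (median 0.33) and in whole tissue from 0.0097 to 0.39 (median 0.24). The microglial positive fraction was lower than the input and than the negative fraction in 5 of 6 mice each (all but mouse 155), the negative fraction lower than the input in 6 of 6 and the input lower than whole tissue in 2 of 5. Of the 9 genes, 4 (Gad2, Aldh5a1, Gabbr1 and Gabbr2) have a longest transcript of over 5000 bases and 7 (all but Slc6a13 and Maob) merged exons of that length. The part of this ratio in the differences between fractions was not tested. Mouse 290 had the lowest ratio in both of its groups, and mouse 155 in the Cx3cr1-NuTRAP input and negative fraction. Results are therefore also given without these mice and without mouse 210 where they change. In bulk RNA, fewer cells of a type and less RNA per cell cannot be told apart.

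In the astrocyte positive fraction Gad1 and Gad2 were low, and Slc6a11, Abat, Aldh5a1, Maob and Gabbr1 were high. Against the negative fraction of the same mice, 6 of the 9 genes were higher, against 26.8% of the 13319 genes tested, and 2 were lower, against 24.8%. The median log2 fold change was 1.20 for the 9 genes and 0.04 for all genes tested. Slc6a11 and Maob changed most, at 9.94 and 6.04 times the negative fraction, and Gad1 and Gad2 were 2.26-fold and 2.59-fold lower. Without mouse 290 there were also 6 higher and 2 lower, against 34.6% and 34.3% of all genes in that fit. Scaling by library totals alone moved the median of all genes to −0.31, and under it Slc6a13 was no longer called.

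**Figure D1:**
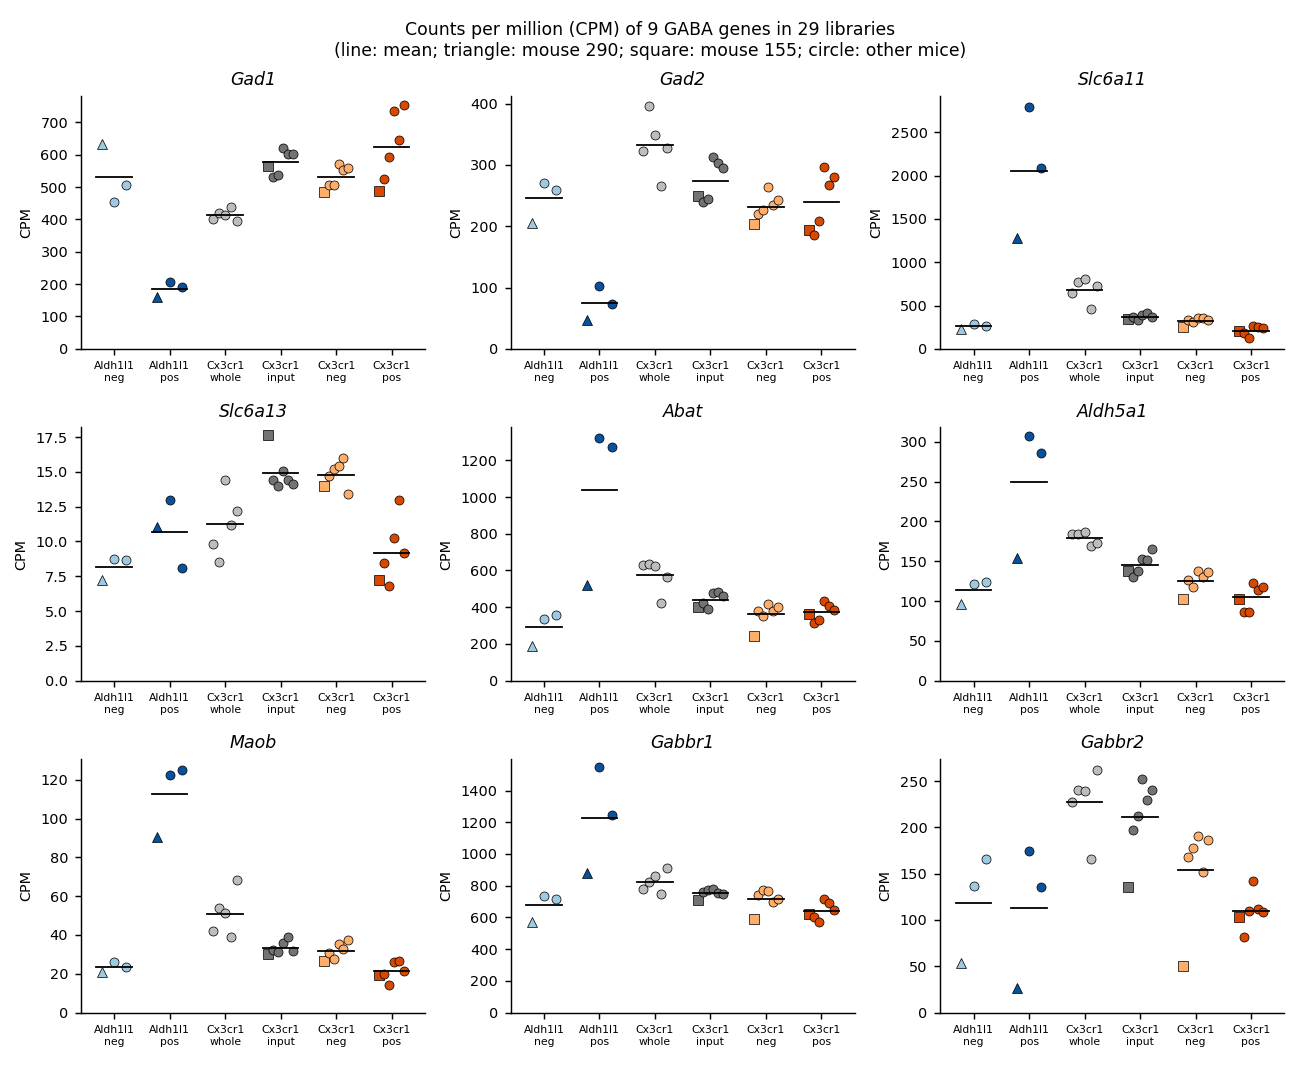
Level of each of the 9 genes in CPM (linear axis from 0) in all 29 libraries by group, with a point for each mouse (triangle for mouse 290, square for mouse 155) and a line at the group mean. The Aldh1l1-NuTRAP positive fraction is the lowest group for Gad1 and Gad2 and lies above all other libraries for Slc6a11 (1280 to 2792 CPM) and Maob (90.5 to 125 CPM).

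Gad1 encodes GAD67, the decarboxylase behind most of the basal GABA of neurons. It stood at 632, 453 and 507 CPM in the negative fractions of mice 290, 293 and 294 and at 161, 205 and 190 CPM in their positive fractions. The groups did not overlap, and Gad1 fell by 1.18 on the log2 scale (SE 0.19, adjusted p = 0.00176), in 3 of 3 mice. Gad2 encodes GAD65, the decarboxylase tied to synaptic vesicles. Its levels were 206, 271 and 260 CPM in the negative and 47.7, 103 and 73.7 CPM in the positive fractions, again without overlap. Gad2 fell by 1.37 (SE 0.27, adjusted p = 0.0049) in 3 of 3 mice, with the smallest positive level in mouse 290. The call for Gad2 was lost without mouse 294, at an adjusted p of 0.0511, the highest over the 9 other settings tried. The summed GABAergic neuron markers (13 genes) went from 818 to 1623 CPM in the negative fraction to 371 to 517 CPM in the positive fraction, where 7 were lower, 0 higher and 6 not called. Their part in the levels of Gad1 and Gad2 was not tested.

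Neither decarboxylase was called in the microglial positive fraction. Gad1 stood at 489 to 753 CPM (median 620) in the positive fraction, at 532 to 620 CPM (median 584) in the input and at 485 to 571 CPM (median 530) in the negative fraction. All of these ranges overlapped. Against the input Gad1 differed by 0.13 on the log2 scale (95% interval −0.09 to 0.34, adjusted p = 0.318). Against the negative fraction it differed by 0.26 (SE 0.10, adjusted p = 0.0784) and was higher in 6 of 6 mice, by 0.05 to 0.45 within a mouse. That difference was called at 0.0360 without mouse 155, at 0.0380 by DESeq2 and at 0.0198 with all 6 groups in one fit, in a range of 0.0198 to 0.196 over 12 settings. Gad2 ranged from 185 to 297 CPM (median 238) in the positive fraction, from 240 to 313 CPM (median 273) in the input and from 203 to 263 CPM (median 230) in the negative fraction. Its difference from the input was −0.19 (SE 0.12, adjusted p = 0.216) and became a call with the mouse as a block (−0.20, adjusted p = 0.0331, in a range of 0.0331 to 0.424 over 12 settings). Its difference from the negative fraction was 0.07 (adjusted p = 0.714), with 3 mice up and 3 down. Of the 13 GABAergic neuron markers, 6 were higher than the input, against 23.3% of all genes, and 0 were lower, against 25.6%. Against the negative fraction 3 were higher, where 12.8% of all genes were. Other neuron markers went the other way against the input, with 0 higher and 3 lower of 7 glutamatergic and 0 higher and 2 lower of 7 general ones. The positive fraction thus held reads of both decarboxylases at levels within or near those of the unpurified RNA.

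Between the positive fractions of the lines, the astrocyte libraries held 2.71-fold less Gad1 (log2 −1.44, SE 0.16, adjusted p = 1.74e-05) and 2.57-fold less Gad2 (log2 −1.36, SE 0.24, adjusted p = 0.000455). The ratio of positive to negative fraction also differed between the lines, by −1.48 for Gad1 (SE 0.19, adjusted p = 2.46e-06) and −1.48 for Gad2 (SE 0.26, adjusted p = 8.8e-05). These comparisons share the positive libraries with those above, and the line cannot be told apart from anything else that differed between the mice of each line. The negative fractions of the lines differed by 0.04 for Gad1 (adjusted p = 0.911) and 0.12 for Gad2 (adjusted p = 0.664).

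Between input and whole tissue the decarboxylases had differences of opposite sign. Gad1 stood at 402, 420, 415, 437 and 395 CPM in the whole tissue of mice 192, 194, 209, 210 and 277, below every input library. It was 1.39-fold higher in the input (log2 0.47, SE 0.056, adjusted p = 7.34e-05), in 5 of 5 mice. Gad2 stood at 323, 396, 349, 265 and 328 CPM in the same tissues. Its ranges overlapped with the input, where it was 1.22-fold lower (log2 −0.28, SE 0.099, adjusted p = 0.0427), in 4 of 5 mice. The Gad2 call held in 4 of 12 settings, with adjusted p from 0.0055 to 0.223. It was lost with the mouse as a block (0.148), with no filter, with all 6 groups in one fit and when any of mice 155 (0.0796), 192, 194, 209 or 277 was left out. Per length, using merged exons, the ratio of Gad1 to Gad2 was 0.816 to 1.27 (median 0.928) in whole tissue and 1.53 to 1.74 (median 1.63) in the input. The positive fractions lay at 1.54 to 2.59 (median 1.98) for astrocytes and 1.86 to 2.19 (median 2.00) for microglia. The size of this ratio depends on the length taken for Gad1, whose merged exons cover 7639 bases and whose longest transcript covers 3601, while the order of the groups does not. In the same comparison of input and whole tissue, 9 of 13 GABAergic neuron markers were higher in the input, among them Dlx1 (log2 1.22) and Dlx5 (log2 1.46), and 0 were lower. Over all genes 16.3% were higher and 14.2% lower. Of 7 glutamatergic neuron markers 5 were higher and 1 lower, and of 7 general ones 2 were higher and 2 lower. The part of these markers, and of the piece of brain taken, in the Gad1 difference was not tested.

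**Figure D2:**
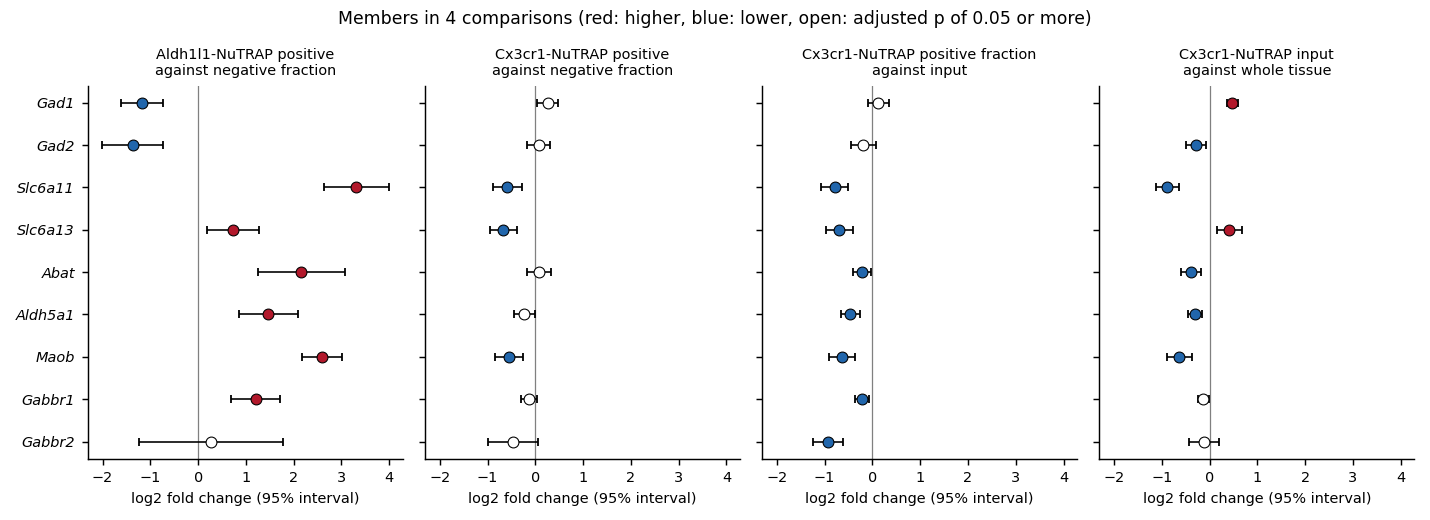
Log2 fold change from edgeR for each of the 9 genes in 4 comparisons, with 95% confidence intervals, red points for higher, blue for lower and open points for an adjusted p of 0.05 or more. In the astrocyte comparison Slc6a11 (3.31) lies farthest above 0 and Gad2 (−1.37) farthest below, while both microglial positive fraction comparisons lie between −0.94 (Gabbr2 against input) and 0.26 (Gad1 against the negative fraction).

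Slc6a11 showed the largest change of the 9 genes. Its levels were 230, 289 and 268 CPM in the negative fractions of mice 290, 293 and 294 and 1280, 2792 and 2094 CPM in the positive fractions. The lowest positive library was several times the highest negative one, and Slc6a11 rose by 3.31 on the log2 scale (SE 0.29, adjusted p = 0.000139). Within mice the log2 ratio was 2.82, 3.63 and 3.30. Without mouse 290 the log2 fold change was 3.44 (SE 0.15). Per length, Slc6a11 had the highest level of the 9 genes in the astrocyte positive fraction, at 407 ± 150 CPM per kb (SD, n = 3), ahead of Gabbr1 at 158 ± 43.3.

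In the microglial positive fraction Slc6a11 was low. It ranged from 129 to 258 CPM (median 223), below every input library (338 to 415 CPM, median 364), and overlapped by 1 library, that of mouse 155, with the negative fraction (251 to 360 CPM, median 334). It fell 1.73-fold against the input (log2 −0.79, SE 0.13, adjusted p = 0.000288) and was lower than in the negative fraction (log2 −0.59, SE 0.14, adjusted p = 0.009), in 6 of 6 mice each. The second call was lost without mouse 192 (adjusted p = 0.0581), the highest over 12 settings. Of the 10 astrocyte markers, 7 were lower in each of these comparisons and 0 were higher. Against the microglial positive fraction, Slc6a11 was 12.1 times higher in the astrocyte positive fraction (log2 3.59, SE 0.24, adjusted p = 4.27e-07). The lines differed by 3.86 in the log2 ratio of positive to negative fraction (SE 0.30, adjusted p = 5.34e-09). The negative fractions of the lines differed by −0.27 (adjusted p = 0.32).

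Whole tissue stood second in the order of Slc6a11 levels, apart from its neighbours on both sides. The levels were 646, 776, 805, 461 and 721 CPM in mice 192, 194, 209, 210 and 277, with the lowest in the shallow library of mouse 210. Slc6a11 was 1.85-fold lower in the input (log2 −0.89, SE 0.11, adjusted p = 0.000117), and without mouse 210 the log2 fold change was −1.04 (SE 0.066). In this comparison 5 of 10 astrocyte markers were lower and 5 were not called, with a median log2 fold change of −0.21.

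Slc6a13, the transporter of meninges and liver, was the least abundant of the 9 genes, with 3.68 ± 0.844 CPM per kb (SD, n = 3) in the astrocyte positive fraction and a lowest raw count of 47.6, in the whole tissue of mouse 210. Its levels were 7.21, 8.74 and 8.63 CPM in the Aldh1l1-NuTRAP negative and 11.0, 13.0 and 8.10 CPM in the positive fractions. These ranges overlapped, and the fold change of 1.66 (log2 0.73, SE 0.23, adjusted p = 0.0337) passed the threshold in 6 of 9 settings. It was lost with library totals alone (adjusted p = 0.209), without mouse 293 (0.253) and without mouse 294 (0.0777), in a range of 0.0026 to 0.253. Microglial positive libraries held it at 6.80 to 13.0 CPM (median 8.83), below every library of the input (14.0 to 17.7 CPM, median 14.4) and of the negative fraction (13.4 to 16.0 CPM, median 15.0). It fell 1.62-fold against the input (log2 −0.69, SE 0.14, adjusted p = 0.000872) and 1.59-fold against the negative fraction (log2 −0.67, SE 0.14, adjusted p = 0.0027), and both calls held in all 12 settings. Slc6a13 was the one gene of the 9 whose negative fractions differed between the lines, 1.76-fold lower in Aldh1l1-NuTRAP mice (log2 −0.81, SE 0.11, adjusted p = 0.0172). Of all 13613 genes, 0.125% were lower there, and 0 of the 9 genes were higher (0 at an unadjusted p under 0.05 in edgeR, and 0 by DESeq2), against 0.125%. That call was lost when any of mice 192, 194, 209, 210, 277 or 293 was left out, with an adjusted p of at most 0.145. Between the positive fractions of the lines its log2 difference was 0.54 (SE 0.22, adjusted p = 0.0524). It was called in 5 of 14 settings (adjusted p from 0.004 to 0.42), namely RLE size factors, DESeq2, all 6 groups in one fit and without mouse 210 or 294. The difference between the lines in the positive to negative ratio was 1.35 (SE 0.25, adjusted p = 0.000169).

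Leptomeningeal markers moved beside Slc6a13 in some comparisons and not in others. The sum of the 10 leptomeningeal fibroblast markers was 425 to 719 CPM in the astrocyte positive fraction against 176 to 241 CPM in its negative fraction, with 6 higher and 2 lower of the 8 that passed the filter in both groups. It was 118 to 200 CPM in the microglial positive fraction against 220 to 264 CPM in the input, with 6 lower and 0 higher, against 25.6% and 23.3% of all genes. None of the 10 was called between the negative fractions of the lines, at a median log2 difference of −0.33. Of the 8 markers that passed the filter in both groups, 6 were higher in the input than in whole tissue, against 16.3% of all genes. Whole tissue held Slc6a13 at 9.83, 8.50, 14.4, 11.2 and 12.2 CPM in mice 192, 194, 209, 210 and 277. Slc6a13 itself was 1.33-fold higher in the input (log2 0.41, SE 0.12, adjusted p = 0.0201). This call was lost without mouse 192 (adjusted p = 0.110), without mouse 194 (0.0797) and with all 6 groups in one fit (0.0616), in a range of 0.0101 to 0.110 over 12 settings. The part of leptomeningeal RNA in these values was not tested.

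Abat, whose product opens the breakdown of GABA, was 4.48 times higher in the astrocyte positive than in the negative fraction (log2 2.16, SE 0.39, adjusted p = 0.00294). The levels were 190, 334 and 359 CPM in the negative and 522, 1322 and 1271 CPM in the positive fractions of mice 290, 293 and 294. Mouse 290 was the lowest in both fractions, the groups did not overlap, and its within-mouse log2 ratio of 1.80 lay near those of the other mice (2.34 and 2.17). Without mouse 290 the log2 fold change was 2.22 with an SE of 0.087. Abat in the microglial positive fraction ranged from 317 to 433 CPM (median 374), overlapping with the input (390 to 480 CPM, median 441) and the negative fraction (244 to 415 CPM, median 379). Against the input it differed by −0.22 on the log2 scale (SE 0.086, adjusted p = 0.0449), in 6 of 6 mice. That call held in 4 of 12 settings and was lost without mouse 192, 194, 210 or 277, with RLE size factors, no filter, DESeq2 and all 6 groups in one fit, with adjusted p from 0.0228 to 0.334. It differed by 0.07 from the negative fraction (adjusted p = 0.705). Between the positive fractions of the lines Abat was 3.44 times higher in astrocytes (log2 1.78, SE 0.23, adjusted p = 5.17e-05). The difference between the lines in the positive to negative ratio was 2.05 (SE 0.33, adjusted p = 4.38e-05).

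Aldh5a1, which completes the conversion of GABA to succinate, was also higher in the astrocyte positive fraction. It stood at 96.0, 122 and 124 CPM in the negative and 154, 307 and 285 CPM in the positive fractions of mice 290, 293 and 294. It rose 2.77-fold without overlap (log2 1.47, SE 0.26, adjusted p = 0.00302). In the microglial positive fraction it ranged from 85.7 to 122 CPM (median 109), below every input library (131 to 165 CPM, median 144), and was 1.38-fold lower than the input (log2 −0.46, SE 0.096, adjusted p = 0.00131). Against the negative fraction (103 to 138 CPM, median 128) it differed by −0.23 (adjusted p = 0.111), lower in 5 of 6 mice. Astrocyte positive libraries held 2.94 times the Aldh5a1 of microglial positive libraries (log2 1.56, SE 0.19, adjusted p = 3.57e-05), and between the lines the positive to negative ratio differed by 1.66 (SE 0.24, adjusted p = 1.08e-05). Per length, the ratio of Abat to Aldh5a1 was 2.47 to 3.25 (median 3.14) in the astrocyte positive and 1.44 to 2.11 (median 2.00) in the negative fraction.

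Maob, the monoamine oxidase of astrocytes and serotonergic neurons, was 6.04 times higher in the astrocyte positive fraction (log2 2.59, SE 0.18, adjusted p = 6.36e-05). It stood at 21.0, 26.2 and 23.6 CPM in the negative and 90.5, 123 and 125 CPM in the positive fractions of mice 290, 293 and 294. The within-mouse log2 ratios of 2.44, 2.58 and 2.74 were the closest together of the 9 genes. In microglial positive libraries Maob ranged from 14.4 to 26.4 CPM (median 20.5), below every library of the input (30.1 to 39.0 CPM, median 31.9) and of the negative fraction (26.8 to 37.2 CPM, median 31.7). It was 1.55-fold lower than the input (log2 −0.64, SE 0.12, adjusted p = 0.000878) and 1.47-fold lower than the negative fraction (log2 −0.55, SE 0.13, adjusted p = 0.00834), in 6 of 6 mice each. The astrocyte positive fraction held 6.59 times the Maob of the microglial positive fraction (log2 2.72, SE 0.17, adjusted p = 2.42e-07). The lines differed by 3.10 in the log2 ratio of positive to negative fraction (SE 0.23, adjusted p = 2.25e-09).

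Abat, Aldh5a1 and Maob were also lower in the input than in whole tissue. Whole tissue held Abat at 629, 637, 622, 424 and 563 CPM, Aldh5a1 at 184, 185, 187, 169 and 173 CPM and Maob at 42.1, 54.1, 51.5, 39.1 and 68.2 CPM in mice 192, 194, 209, 210 and 277. Mouse 210 was the lowest for each. The input was 1.32-fold lower for Abat (log2 −0.40, SE 0.097, adjusted p = 0.00699), and this call was lost with the mouse as a block (adjusted p = 0.0525), without mouse 194 (0.0510) and with all 6 groups in one fit (0.0794), in a range of 7.97e-05 to 0.0794 over 12 settings. It was 1.24-fold lower for Aldh5a1 (log2 −0.31, SE 0.066, adjusted p = 0.00312) and 1.55-fold lower for Maob (log2 −0.63, SE 0.12, adjusted p = 0.00141), and these calls held in all 12 settings. Of the markers that passed the filter in both groups, 6 of 6 endothelial, 4 of 4 ependymal and 6 of 7 oligodendrocyte ones were also lower in the input. Higher there were 9 of 13 GABAergic neuron, 5 of 7 glutamatergic neuron and 6 of 8 leptomeningeal markers. Their part in the values of Abat, Aldh5a1 and Maob was not tested. Between input and whole tissue, 2 of the 9 genes were higher, against 16.3% of 13608 genes, and 5 were lower, against 14.2%. With all 6 groups in one fit 1 was higher, against 8.24% of all genes, and 3 were lower, against 9.83%, and with the mouse as a block 3 were lower, against 9.59%.

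**Figure D3:**
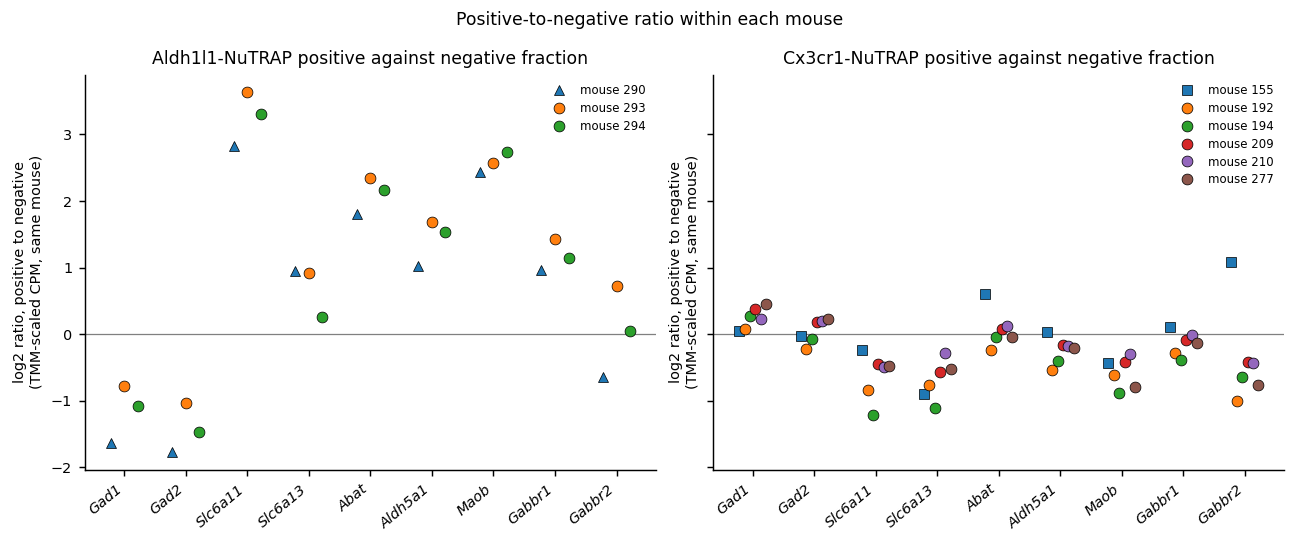
Log2 ratio of positive to negative fraction within each mouse for the 9 genes, from TMM-scaled CPM, with a point for each mouse and a panel for each line. The astrocyte ratios run from −1.76 (Gad2) to 3.63 (Slc6a11), with every mouse on one side of 0 for all genes but Gabbr2, and among the microglial ratios of Gabbr2 mouse 155 stands alone above 0, at 1.08.

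Of the receptor subunits, Gabbr1 was called in the astrocyte positive fraction and Gabbr2 was not, and the difference between them was not tested. Gabbr1, which binds GABA, stood at 572, 738 and 718 CPM in the negative and 877, 1548 and 1247 CPM in the positive fractions of mice 290, 293 and 294. It rose 2.30-fold without overlap (log2 1.20, SE 0.22, adjusted p = 0.0032), in 3 of 3 mice. Gabbr2, which couples the receptor to G proteins, stood at 53.4, 137 and 166 CPM in the negative and 26.7, 175 and 135 CPM in the positive fractions. Its groups overlapped, with mouse 290 far below the others in both. The log2 difference of 0.26 had a 95% interval of −1.24 to 1.77 (adjusted p = 0.752). A change of more than 2-fold in either direction was thus within the error of this fit, which ignores the pairing by mouse. With the mouse as a block the log2 difference of Gabbr2 was 0.07 with a smaller SE of 0.22 (adjusted p = 0.785). Without mouse 290 the difference was 0.35 (SE 0.14, adjusted p = 0.0583, in a range of 0.0583 to 0.926 over 9 settings), and with library totals alone it was −0.08.

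In the microglial positive fraction both subunits were lower than in the input. Gabbr2 ranged from 81.9 to 142 CPM (median 109) in the positive fraction, from 136 to 252 CPM (median 221) in the input and from 50.1 to 191 CPM (median 172) in the negative fraction. It was 1.91-fold lower than the input (log2 −0.94, SE 0.15, adjusted p = 0.000164), in 6 of 6 mice. Against the negative fraction it differed by −0.46 (SE 0.24, adjusted p = 0.175). Mouse 155, at 50.1 CPM in the negative fraction, was 1.08 higher in the positive fraction while the other mice were lower. Without mouse 155 the difference was −0.64 (SE 0.12, adjusted p = 0.00197, in a range of 0.002 to 0.448 over 12 settings). Gabbr1 ranged from 571 to 718 CPM (median 633) in the positive fraction, from 708 to 782 CPM (median 758) in the input and from 588 to 771 CPM (median 730) in the negative fraction. It differed from the input by −0.22 (SE 0.065, adjusted p = 0.0123), a call lost without mouse 192 (0.0911) or 194 (0.0669) and with all 6 groups in one fit (0.0745) in a range of 0.0021 to 0.0911 over 12 settings, and differed from the negative fraction by −0.13 (adjusted p = 0.264).

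Across the lines, Gabbr1 was 2.37 times higher in the astrocyte than in the microglial positive fraction (log2 1.24, SE 0.15, adjusted p = 3.63e-05), and the ratio of positive to negative fraction differed by 1.29 (SE 0.19, adjusted p = 1.43e-05). For Gabbr2 these differences were 0.34 (SE 0.40, adjusted p = 0.468) and 0.68 (SE 0.62, adjusted p = 0.355). Without mouse 290 the first became 0.80 (SE 0.17, adjusted p = 0.00232), in a range of adjusted p from 0.0023 to 0.935 over 14 settings. In whole tissue Gabbr1 stood at 780, 825, 861, 746 and 913 CPM and Gabbr2 at 228, 240, 239, 166 and 262 CPM in mice 192, 194, 209, 210 and 277. Neither was called against the input (Gabbr1 log2 −0.13, adjusted p = 0.0834; Gabbr2 log2 −0.11, adjusted p = 0.607). Gabbr1 was called lower in the input without mouse 210 (−0.17, adjusted p = 0.0218) and by DESeq2 (0.0301), in a range of 0.0218 to 0.283 over 12 settings. Per length, the ratio of Gabbr1 to Gabbr2 was 2.95 to 3.88 (median 3.00) in whole tissue, 2.67 to 4.48 (median 2.99) in the input and 4.37 to 6.32 (median 5.15) in the microglial positive fraction. It was 7.62, 7.93 and 28.2 in the astrocyte positive libraries, with the highest in mouse 290. The longest transcripts have 5248 bases for Gabbr1 and 5750 for Gabbr2. In 5 of 6 groups the library with the lowest Gabbr2 was also the one with the lowest ratio of long to short genes. The exception was the microglial positive fraction, where mouse 192 had the lowest Gabbr2 and mouse 210 the lowest ratio. The part of that ratio in the Gabbr2 values was not tested.

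**Figure D4:**
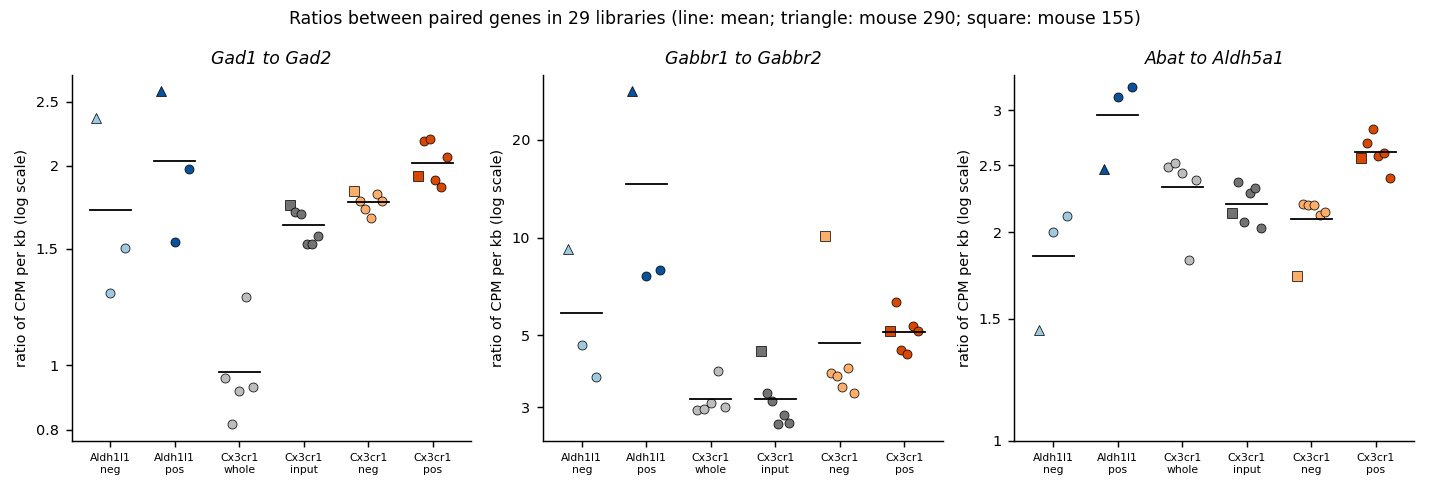
Ratios of CPM per kb between 3 pairs of genes (log axis) in all 29 libraries by group, with a point for each mouse (triangle for mouse 290, square for mouse 155) and a line at the group mean. The ratio of Gad1 to Gad2 is lowest in whole tissue (median 0.928), and the ratio of Abat to Aldh5a1 is higher in the astrocyte positive (median 3.14) than in its negative fraction (median 2.00).

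Counted over the 9 genes, the microglial positive fraction held 0 genes above the input (0 at an unadjusted p under 0.05 in edgeR, and 0 by DESeq2), against 23.3% of 13838 genes, and 7 below it, against 25.6%. DESeq2 called 6 lower, against 25.1% of all genes, and the fit with the mouse as a block 8, against 23.9%. Against the negative fraction 0 were higher (1 at an unadjusted p under 0.05 in edgeR, 1 by DESeq2, which called 15.1% of all genes higher, and 1 with all 6 groups in one fit, which called 15.7%), against 12.8% of 13776 genes in edgeR, and 3 were lower, against 11.6%. Between the positive fractions of the lines, 5 were higher in astrocytes, against 30.6% of 13676 genes, and 2 were lower, against 33.1%. In the difference between the lines 6 were positive, against 25.5% of 13983 genes, and 2 were negative, against 29.9%, in each of 15 settings. The median log2 fold change of the 9 genes was −0.46 against the input, −0.23 against the negative fraction, 1.24 between the positive fractions and 1.35 for the difference between lines, and the medians of all genes lay between −0.11 and −0.0027.

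The microglial negative fraction was compared with the input of the same mice to see what the pulldown left behind. Of the 9 genes, 0 were called by edgeR in either direction (0 higher and 5 lower at an unadjusted p under 0.05), against 1.41% of 13748 genes higher and 4.70% lower, and DESeq2 called 0 higher and 2 lower, against 9.36% of all genes lower. Gad1, Gad2, Slc6a11, Abat, Aldh5a1, Gabbr1 and Gabbr2 were nevertheless lower in 6 of 6 mice, by log2 differences between −0.07 (Gabbr1) and −0.46 (Gabbr2). With the mouse as a block, which called 19.5% of all genes lower, 6 of them were called: Gad1 (−0.11, adjusted p = 0.00689), Gad2 (−0.23, 0.000503), Slc6a11 (−0.19, 0.00159), Abat (−0.29, 0.00273), Aldh5a1 (−0.21, 0.00125) and Gabbr2 (−0.53, 0.0447). Without mouse 155, 5 were called lower, against 14.8% of all genes. Slc6a13 differed by −0.01 and Maob by −0.06 on the log2 scale. The ratio of long to short genes was also lower in the negative fraction than in the input in 6 of 6 mice, by 0.15 to 0.67 on the log2 scale. By the longest transcript, the length this ratio uses, 4 of the 7 genes lower in every mouse are over 5000 bases and the other 3 have 3601 to 4636, against 2234 for Slc6a13 and 2411 for Maob. The part of this ratio in their differences was not tested.

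The other genes of the pathway were read from lists of 33 genes. All of these lists were chosen with earlier results of these data known, so their counts are a description and no independent test. Of the other GABA transporters, Slc6a12, the betaine and GABA transporter next to Slc6a13, stood at 1.25 to 1.70 CPM in the astrocyte negative and 2.19 to 3.24 CPM in the positive fraction. Its lowest count of 11 in the negative fraction let it pass the filter through the positive fraction alone, so no test is given. Slc32a1, which loads GABA into synaptic vesicles, fell by 1.02 on the log2 scale in the astrocyte positive fraction (adjusted p = 0.00686). These genes were chosen after their values were seen. Neither was called in the microglial positive fraction against the input or the negative fraction.

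**Figure D5:**
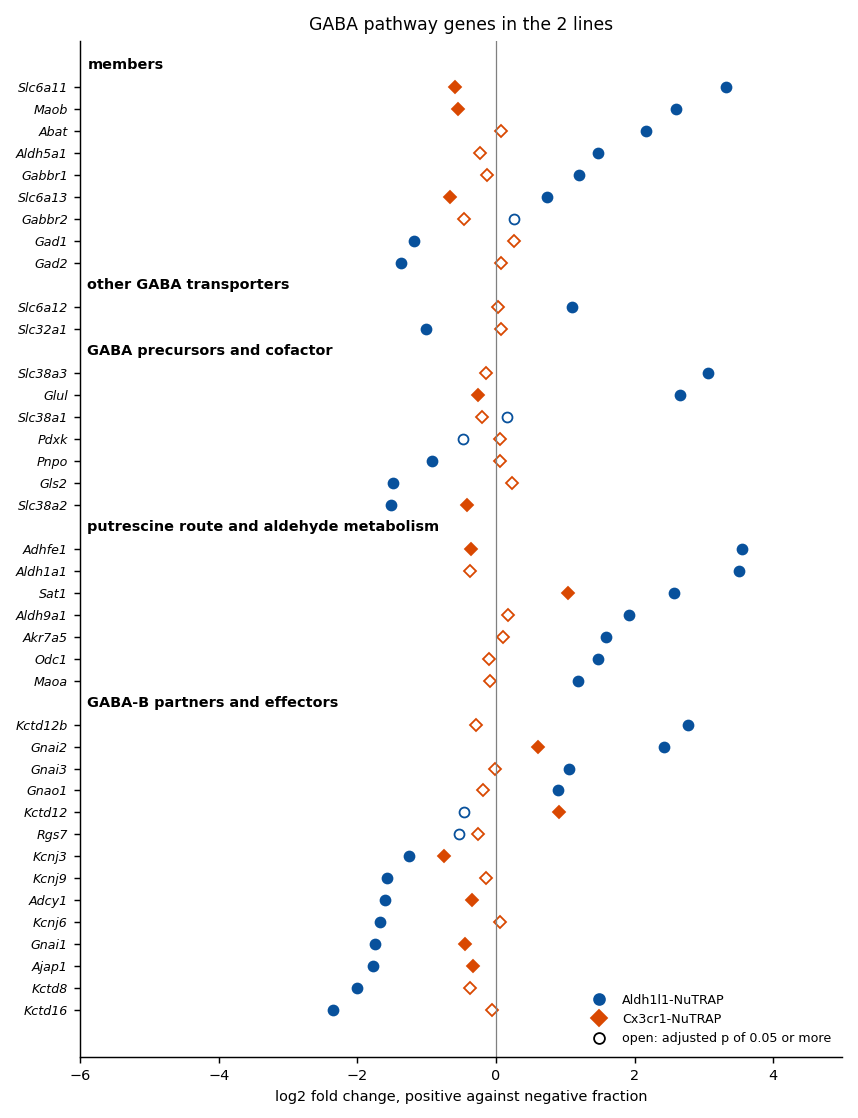
Log2 fold change of positive against negative fraction for genes of the pathway lists, with circles for Aldh1l1-NuTRAP, diamonds for Cx3cr1-NuTRAP and open symbols for an adjusted p of 0.05 or more. The lists were chosen with earlier results of these data known. All 7 genes of the putrescine route and aldehyde metabolism are higher in the astrocyte positive fraction, and 7 of the 13 GABA-B partners and effectors that passed the filter in both groups are lower there, Kctd16 having passed through the negative fraction alone.

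All 7 genes of the putrescine route and aldehyde metabolism were higher in the astrocyte positive than in the negative fraction (median log2 1.91), against 26.8% of all genes. Among them Adhfe1, which oxidizes γ-hydroxybutyrate, rose from 10.7 to 13.1 CPM to 98.6 to 124 CPM (log2 3.56), and Aldh1a1, an aldehyde dehydrogenase that can form GABA in dopamine neurons, from 80.2 to 99.8 CPM to 702 to 912 CPM (log2 3.51). The 7 genes were also higher than in the microglial positive fraction (median log2 1.39, against 30.6% of all genes) and positive in the difference between the lines (25.5% of all genes). In microglia 2 of the 7 were higher than the input and 1 was lower, near the 23.3% and 25.6% of all genes. The highest was Sat1, the spermidine and spermine acetyltransferase (log2 1.22), which was also higher than the negative fraction (log2 1.03).

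Of the precursor and cofactor genes, 8 of 9 were tested in astrocytes, where 2 were higher and 4 lower, against 26.8% and 24.8% of all genes. Slc38a3, a glutamine transporter of astrocytes, rose from 59.3 to 70.3 CPM to 409 to 464 CPM (log2 3.06). Microglial positive libraries had 5 of 8 below the input, against 25.6% of all genes. Between the positive fractions 2 of 8 were higher and 5 lower in astrocytes, against 30.6% and 33.1% of all genes, with Gls2 at −1.88.

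Most GABA-B partners and effectors called in astrocytes were lower in the positive fraction. Of the 13 that passed the filter in both groups, 7 were lower and 4 higher than in the negative fraction (median log2 −1.25), against 24.8% and 26.8% of all genes. The receptor auxiliary subunit Kctd16 stood at 3.98 to 8.27 CPM in the negative and 0.30 to 1.30 CPM in the positive fraction and passed the filter through the negative fraction alone, so no test is given. The auxiliary subunit Kctd8 fell from 9.56 to 15.0 CPM to 1.86 to 2.98 CPM (log2 −2.01). Of the 14, microglial positive libraries had 11 lower and 2 higher than the input (median log2 −0.45), against 25.6% and 23.3% of all genes. The falls were led by the potassium channel subunit Kcnj3 (log2 −1.21), Kctd16 (log2 −0.84) and the channel subunit Kcnj6 (log2 −0.70). The genes that rose were the G protein subunit Gnai2 (log2 0.67) and the auxiliary subunit Kctd12 (log2 0.64). Kctd12 (log2 0.91) and Gnai2 (log2 0.61) were also higher than in the negative fraction, where 4 were lower, against 11.6% of all genes.

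Against the input, 4 of the 33 pathway genes (1 of 9 for precursors and cofactor and 3 of 14 partners) were lower in the microglial negative fraction, against 4.70% of all genes, led by Kctd16 (log2 −0.76) and Kcnj6 (log2 −0.73). Between input and whole tissue 5 of 7 putrescine and aldehyde genes were lower in the input, among them Maoa (log2 −0.52) and Adhfe1 (log2 −0.37), against 14.2% of all genes. Of the 13 partners that passed the filter in both groups, 4 were higher, led by Kctd12 (log2 0.44) and Kcnj9 (log2 0.35), against 16.3%. Another 2 were lower, against 14.2%. Kctd12b had a lowest count of 18 in whole tissue and passed the filter through the input alone, so no test is given.

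Likeness of pattern was described as Pearson's r of log2 CPM over 29 libraries among 14108 genes. The libraries share mice, depth and the contrast of the astrocyte positive fraction with the rest, so these values are a description without a test. Slc6a11 was closest to Klhdc7a (r = 0.983), Maob (0.982) and Kcnj10 (0.980), and Maob to Slc6a11 (0.982), Timp3 (0.973) and Aldh6a1 (0.972). Gad1 was closest to Ablim3 (0.948), Gng4 and Ankrd45 (0.936), and Gad2 to Zmat4 (0.982), Nsf and Slc7a1. The decarboxylases correlated with each other at 0.774. Abat was closest to Acss2 (0.950), Gna12 and Itpkb (0.943), and Aldh5a1 to Pcyt1a (0.985), Clic4 (0.962) and Lsamp (0.960). Gabbr1 was closest to Adcy2 (0.956), 4933431E20Rik (0.955) and Fads2 (0.954), and Gabbr2 to Rab11fip4 (0.964), Exoc4 (0.964) and 8030462N17Rik (0.957). The receptor subunits correlated with each other at 0.316. Slc6a13 had no close match, with the highest values for Aldh1a2 (0.810), Fzd7 (0.796) and Tgfbr3 (0.795). Slc6a11, Abat, Aldh5a1, Maob and Gabbr1 correlated with one another at 0.857 to 0.982. With Spearman's rank correlation, 2 of these 3 nearest genes were shared for Slc6a13, Aldh5a1, Maob and Gabbr2, 1 for Gad1, Gad2, Slc6a11 and Gabbr1, and 0 for Abat.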

How the data were processed

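TRAP-RNAseq libraries of polyA RNA from 29 fractions or tissues were analysed. Reads were trimmed and aligned by the authors in Strand NGS (mm10, RefSeq genes), and the deposited raw values are expected counts per gene (82.4% of nonzero values not whole, at a tolerance of 1e-06), rounded here before testing. The deposited log2 values, a DESeq-normalized form of the counts from the authors, were not used. The submitters' processing notes name DESeq and mm10. The number of per-sample columns without a sample was 0. Groups and mice were taken from the labels, and each mouse counted once per group. A gene entered a fit where all libraries of at least 1 group compared had over 20 counts. Fits used edgeR 4.0.16 in R 4.3.3 (robust quasi-likelihood, TMM scaling), two-sided, with Benjamini-Hochberg adjustment over all genes tested and a threshold of 0.05. Each fit held the compared groups alone, without a block. The SE was the log2 fold change over the square root of F. Correlations used a prior count of 2. Levels between genes were set per kb of merged exons in the GENCODE annotation of GRCm38. The fits for the astrocyte positive against negative fraction and the microglial positive fraction against input were tried on simulated data. These libraries were drawn independently with no effect of the mouse, so the pairing was not covered. Python 3.11.15, pandas 2.3.3, NumPy 2.4.6, matplotlib 3.10.9 and limma 3.58.1 were used. Alternatives were DESeq2 1.42.0, RLE size factors, library totals, no filter, leaving out each mouse, all 6 groups in one fit and the mouse as a block. Library totals of 4260949 to 26857866 set the precision, and counting intervals were not needed since spread came from replicates. Fractions of one animal number come from the same mouse, which pairs the samples. Residual expression of paired libraries correlated above 0.1 in 3 of 3 pairs of astrocyte fractions, 3 of 6 pairs of microglial positive fraction with input and with negative fraction each, 5 of 6 pairs of negative fraction with input and 0 of 5 pairs of input with whole tissue. All 9 genes are named throughout. Of the other pathway genes the 3 largest rises and 3 largest falls past the threshold per comparison could be named, and for likeness the 3 genes with the highest r. The genes, pathway lists and marker lists were chosen with earlier results of these data known. Some other pathway genes are counted in their lists and not reported here.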

Additional observations from a re-analysis of the deposited data

Results flagged for a closer look

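In 3 of the 36 sets of 4 to 10 libraries tested for a single distant value, 1 library lay apart by Dixon's criterion, where chance gives about 1 in 20. All 3 belonged to mouse 155. Slc6a13 in its input stood at 17.65 CPM, against 13.97 to 15.07 CPM in the other inputs. Abat in its negative fraction stood at 244.3 CPM, against 351.6 to 414.8 CPM, and Gabbr2 in its negative fraction at 50.06 CPM, against 151.6 to 190.9 CPM.

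The ratio of positive to negative fraction differed between the lines for 8 of the 9 genes by the interaction term of edgeR (6 positive, against 25.5% of all genes, and 2 negative, against 29.9%). The log2 difference, Aldh1l1-NuTRAP minus Cx3cr1-NuTRAP, was −1.48 for Gad1, −1.48 for Gad2, 3.86 for Slc6a11, 1.35 for Slc6a13, 2.05 for Abat, 1.66 for Aldh5a1, 3.10 for Maob and 1.29 for Gabbr1. The cells tagged cannot be told apart from other differences between the mice of each line.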

How the results depend on the processing

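Over 900 values of the 9 genes under other settings, 838 kept direction and side of the threshold, 36 lost the call, 26 gained it and 0 called values changed sign. With DESeq2, 1 gene was higher in the microglial positive than negative fraction (15.1% of all genes) and 2 were lower in the negative fraction than the input (9.36%). With all 6 groups in one fit, 1 gene was higher in the microglial positive than negative fraction (15.7%), and 1 was higher and 3 lower in the input than in whole tissue (8.24% and 9.83%). With the mouse as a block, 6 genes were lower in the negative fraction than the input (19.5%) and 3 lower in the input than in whole tissue (9.59%); the block changed the call of Gad2 against the input in the microglial positive fraction and no other call than those named beside the results. Leaving out 1 mouse at a time gave 1 to 2 genes lower in the astrocyte positive fraction (12.0% to 34.3% of all genes), 0 to 1 higher in the microglial positive than negative fraction (8.34% to 15.0%), 0 to 1 lower between the negative fractions of the lines (0% to 0.515%), 0 to 5 lower in the negative fraction than the input (0% to 14.8%), and 1 to 2 higher (9.31% to 19.4%) and 3 to 6 lower (8.66% to 19.4%) in the input than in whole tissue. The cause of these changes was not tested. TMM scaling moved 6 of 54 group levels by more than 1 SD, and the longest transcript in place of merged exons moved 32 of 54 levels per length. The 3 mice of the astrocyte line and the depth of 4260949 counts in 1 whole tissue limit the precision.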
